A study of Homo sapiens with 4 samples.

Results

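The G1 cyclins and CDK inhibitors examined here are the 10 genes CCND1, CCND3, CCNE1, CCNE2, CDKN1A, CDKN1B, CDKN1C, CDKN2B, CDKN2D and RB1. They were taken by symbol from a gene count table of 56271 rows, and all 10 were found. RNA was sequenced from SKBR3, an established line of HER2-positive breast cancer cells, in 2 eGFP control libraries and 2 VIRMA-overexpressing libraries. VIRMA holds together the enzyme complex that places N6-methyladenosine (m6A) in RNA, and the comparison asks which transcripts differ when it is raised. Both groups carried a lentiviral vector driven by the ubiquitin C promoter: the controls made eGFP alone, and the VIRMA-overexpressing cells made full-length, HA-tagged VIRMA with eGFP split from it by a p2A peptide. The eGFP-positive cells were sorted and grown on, so each group is a mixed transduced population of 1 line and not a clone. The culture description given for all 4 libraries is of cells kept at low oxygen and lysed for protein, so it is uncertain at which oxygen level the RNA was taken, and both groups are assumed to have been treated alike.

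The cell passes from G1 into S phase once the retinoblastoma protein RB1 has been phosphorylated and has let go of the E2F transcription factors. D-type cyclins with CDK4 or CDK6 begin this phosphorylation, E-type cyclins with CDK2 complete it, and E2F in turn drives the genes of cyclin E and of DNA replication. The INK4 inhibitors (CDKN2A to CDKN2D) bind CDK4 and CDK6, and the CIP/KIP inhibitors (CDKN1A, CDKN1B and CDKN1C) bind the cyclin-CDK complexes. In HER2-positive breast cancer, receptor signalling is known for sustaining cyclin D1 and for lowering the CDKN1B protein, much of which is controlled through protein stability and is not read by RNA counts.

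The promoters of a pair of genes that fell (CCNE1 and CDKN2D) and of the gene that rose (CDKN1B) are printed here because these genes carry the opposite changes described further on. Each is the 250 bases before the RefSeq transcription start (GRCh38.p14), written 5′ to 3′ on the strand of the gene, with GC boxes (GGGCGG) and CCAAT boxes (CCAAT) in capitals on either strand. The cyclin E1 promoter is chr19:29811741-29811990, plus strand, the CDKN2D promoter chr19:10568980-10569229, minus strand, and the CDKN1B promoter chr12:12717118-12717367, plus strand.
CCNE1: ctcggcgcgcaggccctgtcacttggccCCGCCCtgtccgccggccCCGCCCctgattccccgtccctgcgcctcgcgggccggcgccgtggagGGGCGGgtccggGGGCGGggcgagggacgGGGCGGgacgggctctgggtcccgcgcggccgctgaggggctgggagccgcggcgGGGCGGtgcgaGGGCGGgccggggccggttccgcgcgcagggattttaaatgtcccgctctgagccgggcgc
CDKN2D: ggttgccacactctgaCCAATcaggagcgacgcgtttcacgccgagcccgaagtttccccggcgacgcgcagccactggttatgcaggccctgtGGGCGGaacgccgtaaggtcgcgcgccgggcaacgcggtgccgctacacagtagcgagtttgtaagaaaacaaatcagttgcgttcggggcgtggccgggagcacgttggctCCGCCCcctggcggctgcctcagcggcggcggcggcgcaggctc
CDKN1B: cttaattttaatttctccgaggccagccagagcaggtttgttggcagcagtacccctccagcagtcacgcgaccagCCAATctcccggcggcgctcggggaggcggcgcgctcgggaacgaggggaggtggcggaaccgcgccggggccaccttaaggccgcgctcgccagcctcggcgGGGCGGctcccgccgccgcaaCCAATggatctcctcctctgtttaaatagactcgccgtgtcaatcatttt
The CCNE1 stretch held 7 GC boxes and no CCAAT box. The CDKN2D stretch held 1 CCAAT box and 2 GC boxes, and the CDKN1B stretch 2 CCAAT boxes and 1 GC box.

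Motif letters were searched on both strands in the whole 300-base RefSeq window, 250 bases before and 50 after the start. Of the 10 genes, 7 had a window (CCND3 with 3 of them, and CCNE1, CDKN1A, CDKN1B, CDKN2B, CDKN2D and RB1). CCND1, CCNE2 and CDKN1C had none. The 1 window of RB1 lies inside the gene, far from its first exon. GC boxes were in a window of 6 of the 7 genes, all but RB1, and in 45.0% of the 35116 RefSeq windows. CCAAT boxes were in a window of 3 genes (CCND3, CDKN1B and CDKN2D) and in 34.6% of all windows. A gene was counted if any of its windows held a match, whereas the shares are of single windows. The 2 are thus unlike measures for CCND3 with its 3 windows. The letters searched for E2F sites (TTTCGCGC, TTTGGCGC, TTTCCCGC or TTTGCCGC) were in none of the 7 genes' windows and in 3.31% of all windows. None held the CHR element (TTTGAA or TTCGAA; 16.4% of all windows), the TATA box TATAAA (11.5%), the cAMP response element TGACGTCA (1.85%) or the ATF4 element TTGCATCA (0.866%). The GC share of the window was 81.0% for CCNE1, 68.0% for CDKN2D and 62.3% for CDKN1B, against a median of 58.7% over all windows. It was 74.3% for CDKN1A, 67.3% for CDKN2B, 38.3% for RB1 and 60.3% to 73.7% for the 3 windows of CCND3. Before the start, CDKN1A had 4 GC boxes and CDKN2B had 2.

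The libraries held 81446932 to 86375474 counts, of which mitochondrial genes took 11.4% to 12.8%. VIRMA, listed under its older symbol KIAA1429, rose from 710 and 682 counts to 3437 and 3460 (log2 fold change 2.29, edgeR adjusted p 9.74e-26), where introduced and endogenous VIRMA are counted together. Of 8 markers of luminal HER2-positive epithelium, 7 were well expressed in every library and CDH1 was near 0, with 5 to 33 counts. Their summed level was 28860 to 29360 CPM (counts scaled to library size) in the controls and 27480 to 27760 CPM in the VIRMA-overexpressing libraries. Of the erythroid markers, HBB was seen in the controls alone, with 2137 and 1543 counts against 0 and 0. It made up most of the sum of the 11 genes, which was 28.4 and 20.7 CPM in the controls against 0.637 and 0.495 CPM. The other erythroid markers were at 0.811 CPM or less in the group means, and not all of them were lower with VIRMA raised. The 10 leukocyte markers summed to 2.75 to 4.47 CPM in the controls and 2.19 to 2.43 CPM in the VIRMA-overexpressing libraries, with MS4A1 at 0 in all 4. The 7 fibroblast markers summed to 13.6 to 14.0 against 8.54 to 9.22 CPM, nearly all of it COL1A1. The part of any of these in the results was not tested.

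Genes with RPKM (counts scaled to library size and exon length) above 1 in at least 2 libraries were tested with edgeR, 12205 in all. Of the 10 genes 8 passed this filter, and CCNE2 and CDKN1C did not. At an adjusted p below 0.05, 1 of the 8 was higher in VIRMA-overexpressing cells (CDKN1B) where 35.1% of all tested genes were higher, and 4 were lower (CCND1, CCND3, CCNE1 and CDKN2D) where 35.9% of all tested genes were lower. Past a 2-fold change as well, 2 of the 8 were lower (CCND3 and CCNE1), against 2.93% of tested genes, and none was higher, against 4.52%, since CDKN1B rose by less than 2-fold. The groups did not overlap in 5 of the 8, against 84.3% of all tested genes. The median log2 fold change of the 8 was -0.16, and that of all tested genes 0.01. With so few libraries the smallest two-sided p of an exact permutation test is 0.33, and the adjusted p-values therefore rest on a spread estimated across genes. In bulk RNA, a lower level per cell and fewer cells in the phase that uses a gene cannot be told apart.

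**Figure D1:**
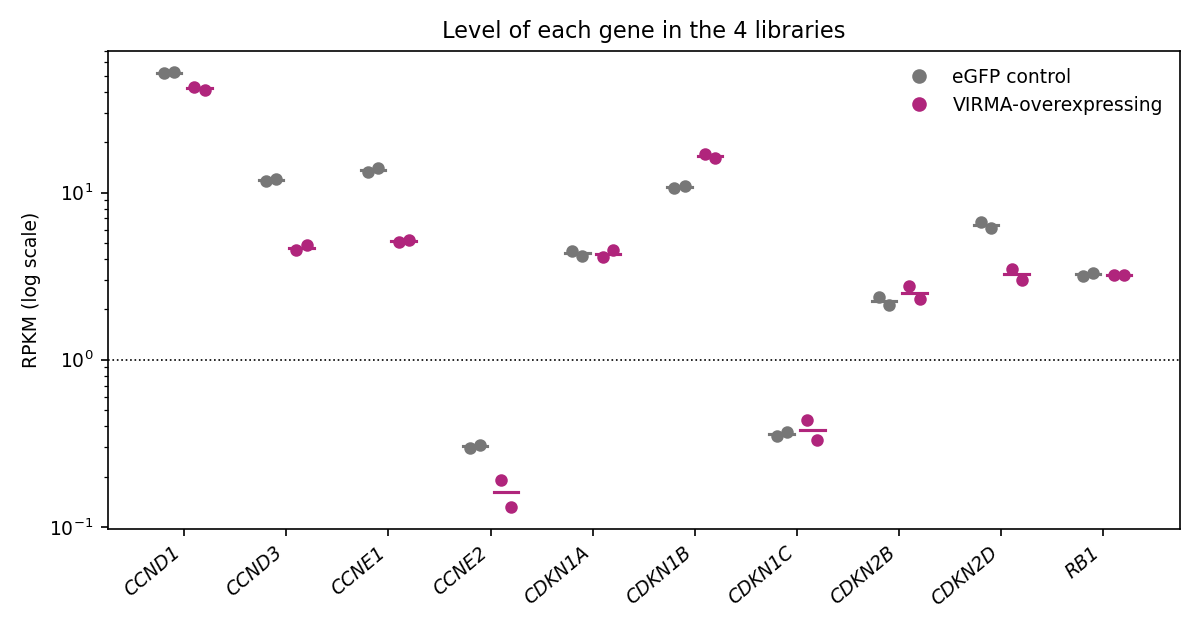
RPKM of each of the 10 genes in the 4 libraries on a log scale, with eGFP controls in grey, VIRMA-overexpressing cells in magenta, points for libraries and bars for group means. CCND1, CCND3, CCNE1, CCNE2 and CDKN2D sit lower in both VIRMA-overexpressing libraries and CDKN1B sits higher. The dotted line marks the filter at an RPKM of 1.

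The D-type cyclins both fell, by different amounts. CCND1, or cyclin D1 (chromosome 11, 69641087 to 69654474, plus strand), had 251 and 253 CPM in the controls and 207 and 198 CPM with VIRMA raised. The groups did not overlap, and the log2 fold change was -0.32 (95% interval -0.38 to -0.25, edgeR adjusted p 7.64e-11), a 1.24-fold lower level. CCND3, or cyclin D3, the D cyclin best known from lymphoid cells (chromosome 6, 41934933 to 42050357, minus strand), had 68.2 and 70.4 CPM in the controls against 26.4 and 28.0 CPM. The controls were both far above the VIRMA-overexpressing libraries. Its log2 fold change was -1.35 (95% interval -1.45 to -1.25, edgeR adjusted p 2.14e-23), or 2.55-fold lower, and only 1.25% of tested genes had a lower one. The intervals of the log2 fold changes of CCND1 and CCND3 did not overlap. CCND2, the third D cyclin, had 0 to 3 counts in each library and was not tested.

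Cyclin D1 was the main D cyclin throughout. Per exon length, the D cyclins summed to 63.8 and 64.4 RPKM in the controls and to 47.5 and 45.7 RPKM with VIRMA raised. CCND1 made up 81.6% and 81.2% of this sum in the controls and 90.4% and 89.4% with VIRMA raised. The ratio of the RPKM of CCND1 to that of CCND3 was accordingly 4.43 and 4.31 in the controls and 9.44 and 8.47 with VIRMA raised.

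Of the E-type cyclins, CCNE1 carried nearly all the signal and fell most of the 8 tested genes. CCNE1, or cyclin E1, which activates CDK2 at the end of G1 (chromosome 19, 29811898 to 29824308, plus strand), had 33.8 and 35.6 CPM in the controls against 12.9 and 13.3 CPM. Both controls were far above both VIRMA-overexpressing libraries. The log2 fold change was -1.41 (95% interval -1.54 to -1.27, edgeR adjusted p 6.88e-20), or 2.65-fold lower, and 1.04% of tested genes had a lower one.

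CCNE2, or cyclin E2 (chromosome 8, 94879770 to 94896678, minus strand), was at 0.298 and 0.310 RPKM in the controls and 0.190 and 0.132 RPKM with VIRMA raised, under the filter. Its counts were 108 and 113 in the controls against 71 and 48, with no overlap. Fitted among all 33976 genes with a count, it had a log2 fold change of -0.95 (95% interval -1.55 to -0.35, edgeR adjusted p 0.00752). This call was lost without either VIRMA-overexpressing library, where the adjusted p was 0.0822 or 0.197, and in limma-voom (adjusted p 0.0539). CCNE2 shares 1629 bases, or 37.0% of its exons, with INTS8 on the opposite strand, and INTS8 rose (log2 fold change 0.39, edgeR adjusted p 0.00341). Whether the counting used strand is not given in the sources used here, so reads of INTS8 may stand among those of CCNE2. CCNE2 lies 343.1 kb from VIRMA by their starts, and the rise of VIRMA was set by the design. The other tested protein-coding genes within 500 kb of CCNE2 rose as well, namely ESRP1 (log2 fold change 1.07), PLEKHF2 (0.62) and INTS8. Over all tested genes, 35.1% were higher.

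**Figure D2:**
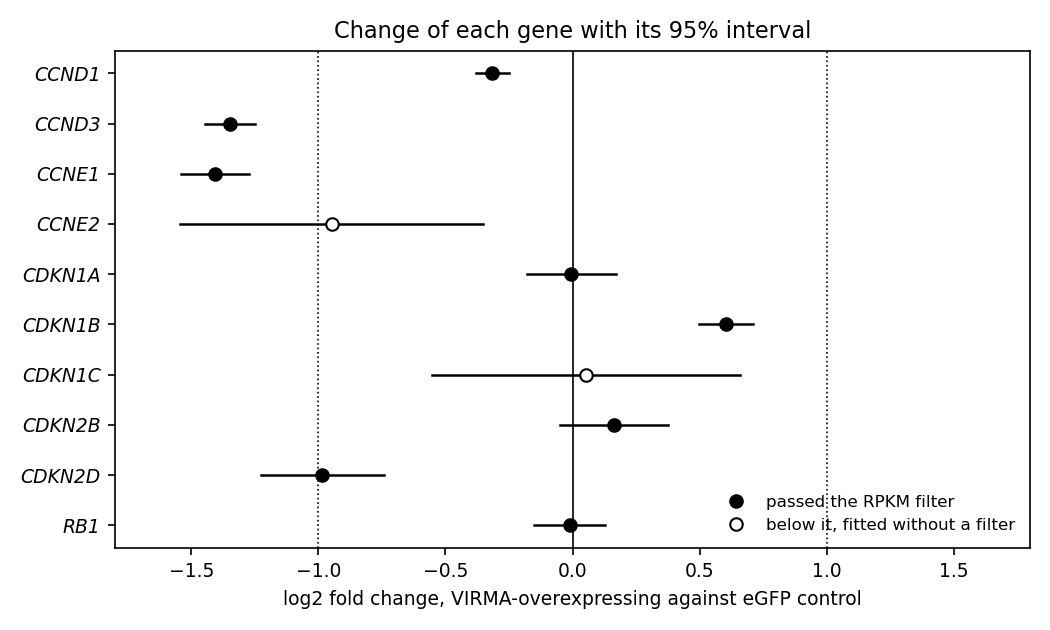
log2 fold change of each gene (VIRMA-overexpressing against eGFP control, 2 libraries each) with its 95% interval from edgeR. Filled points passed the RPKM filter, open points (CCNE2 and CDKN1C) did not and come from the fit without a filter, and dotted lines mark a 2-fold change. The intervals of CCND1, CCND3, CCNE1, CCNE2 and CDKN2D lie below 0 and that of CDKN1B above it, and those of CCNE2 and CDKN1C are the widest.

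Among the CIP/KIP inhibitors CDKN1B rose, and no change was detected in CDKN1A or CDKN1C. CDKN1B encodes p27, which holds cyclin E-CDK2 inactive (chromosome 12, 12715058 to 12722371, plus strand). It had 30.1 and 30.9 CPM in the controls and 47.5 and 45.2 CPM with VIRMA raised. Both VIRMA-overexpressing libraries were above both controls, and the log2 fold change was 0.61 (95% interval 0.50 to 0.71, edgeR adjusted p 1.20e-12), or 1.52-fold. Of all tested genes, 86.4% had a lower log2 fold change than CDKN1B.

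CDKN1A encodes p21, an inhibitor of CDK2 complexes (chromosome 6, 36676460 to 36687339, plus strand). Its level was 13.7 and 12.7 CPM in the controls and 12.5 and 13.8 CPM with VIRMA raised, so that the groups overlapped. The log2 fold change was -0.01 with a 95% interval of -0.18 to 0.17 (edgeR adjusted p 0.961), and its sign turned positive with upper-quartile factors (0.07) and library totals (0.08). CDKN1C, or p57, an imprinted gene (chromosome 11, 2883213 to 2885881, minus strand), had 75 and 79 counts against 95 and 71, under the filter. In the fit without a filter, the log2 fold change was 0.05, with a wide 95% interval of -0.55 to 0.66 (edgeR adjusted p 0.934).

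CDKN1B was the main CIP/KIP gene in every library, and more so with VIRMA raised. The family's summed level was 15.5 RPKM in each control and 21.4 and 21.0 RPKM in the VIRMA-overexpressing libraries, of which CDKN1B made up 68.9% and 70.7% against 78.9% and 76.8%. The ratio of the RPKM of CDKN1B to that of CCNE1, the inhibitor and the cyclin that meet on CDK2, was 0.809 and 0.787 in the controls and 3.35 and 3.09 with VIRMA raised. These are ratios of RNA and not of protein. They set the tested member that rose most against the one that fell most, and so restate those changes.

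The INK4 inhibitors on the list differed from each other. CDKN2D, or p19, an inhibitor of CDK4 and CDK6 (chromosome 19, 10566462 to 10569059, minus strand), had 10.03 and 9.28 CPM in the controls against 5.22 and 4.53 CPM. The groups did not overlap, and the log2 fold change was -0.98 (95% interval -1.23 to -0.74, edgeR adjusted p 3.92e-09), or 1.98-fold lower. This value lies just inside the 2-fold threshold, which it passed under the 3 other filters on low counts and without eGFP control replicate 2 or VIRMA-overexpressing replicate 1. CDKN2B, or p15, a gene induced by TGF-beta (chromosome 9, 22002903 to 22009363, minus strand), had 9.63 and 8.63 CPM in the controls and 11.1 and 9.31 CPM with VIRMA raised. The groups overlapped and the log2 fold change was 0.16 (95% interval -0.05 to 0.38, edgeR adjusted p 0.160), which passed with upper-quartile factors (adjusted p 0.0438), with library totals (0.0353) and without VIRMA-overexpressing replicate 2 (0.0363).

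The INK4 genes outside the 10 fell as CDKN2D did. CDKN2A, which encodes p16 and ARF, went from 4700 and 4971 counts to 2547 and 2577 (log2 fold change -0.94, edgeR adjusted p 1.30e-18), and CDKN2C, or p18, had 4652 and 4547 against 2257 and 2161 counts (log2 fold change -1.08, edgeR adjusted p 5.19e-20). CDKN2A is the nearest tested protein-coding neighbour of CDKN2B, with starts 14.1 kb apart. The 4 INK4 genes summed to 39.2 and 38.7 RPKM in the controls and to 21.2 and 20.4 RPKM with VIRMA raised. The share of CDKN2B in this sum was 6.04% and 5.49% in the controls and 13.0% and 11.3% with VIRMA raised, while that of CDKN2D was 17.0% and 16.0% against 16.4% and 14.8%.

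**Figure D3:**
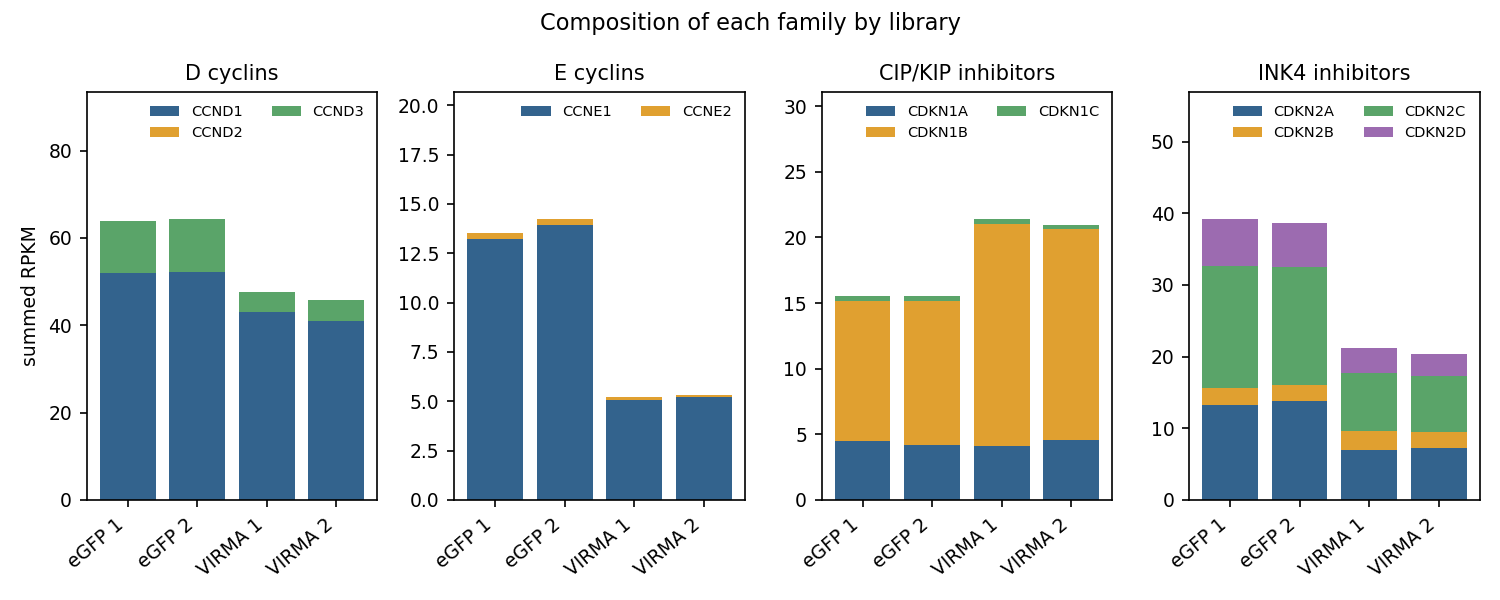
Summed RPKM of each family in the 4 libraries, stacked by gene, with a linear axis from 0 in each panel. The D cyclins, E cyclins and INK4 inhibitors sum to less in the VIRMA-overexpressing libraries and the CIP/KIP inhibitors to more, with CDKN1B as the growing part.

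No change was detected in RB1 RNA. RB1, the pocket protein that the cyclin-CDK complexes phosphorylate (chromosome 13, 48303751 to 48481986, plus strand), had 19.6 and 20.4 CPM in the controls and 19.8 and 19.9 CPM with VIRMA raised. The groups overlapped, the log2 fold change was -0.01 and its 95% interval ran from -0.15 to 0.13 (edgeR adjusted p 0.891). The sign turned positive with upper-quartile factors (0.06) and library totals (0.07). Of the other pocket proteins, RBL1, or p107, an E2F target itself, fell (log2 fold change -0.79, edgeR adjusted p 7.75e-10), and RBL2, or p130, which binds E2F in resting cells, rose from 2174 and 2257 to 4836 and 4403 counts (log2 fold change 1.04, edgeR adjusted p 3.36e-19).

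Ordered by RPKM, the genes of the controls ran from CCND1 (52.2) through CCNE1 (13.6), CCND3 (11.9), CDKN1B (10.8), CDKN2D (6.42), CDKN1A (4.33), RB1 (3.24) and CDKN2B (2.25) to CDKN1C (0.360) and CCNE2 (0.304), and no neighbours in this order overlapped between libraries. With VIRMA raised the order was CCND1 (41.9), CDKN1B (16.5), CCNE1 (5.12), CCND3 (4.69), CDKN1A (4.32), CDKN2D (3.24), RB1 (3.22), CDKN2B (2.52), CDKN1C (0.382) and CCNE2 (0.161). Here CDKN2D and RB1 overlapped, and CCND3 and CDKN1A nearly touched, the lowest library of CCND3 being at 4.55 RPKM and the highest of CDKN1A at 4.54 RPKM. CDKN1B thus passed CCNE1 and CCND3 in the order.

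Of 8 genes for G1 kinases and their activators, 2 rose, 4 fell and 2 did not pass, with a median log2 fold change of -0.06. At the adjusted p alone, these counts are near the background of 35.1% higher and 35.9% lower over all tested genes. The counts of the lists that follow are also to be read against it. Past the 2-fold threshold as well, 2 of the 8 fell (CDK2 and CDC25A), against 2.93% of tested genes, and none rose, against 4.52%. CDK2, the partner of cyclin E, went from 2917 and 3000 counts to 1239 and 1165 (log2 fold change -1.32, edgeR adjusted p 1.81e-19). CDC25A, the phosphatase that activates CDK2, fell by 1.49 on the log2 scale (edgeR adjusted p 6.80e-21). CDK4 fell by 0.68 (edgeR adjusted p 1.23e-14) and CDK6 rose by 0.44 (edgeR adjusted p 4.43e-06), 2 kinases that share the D cyclins. CDC37, the chaperone partner that loads CDK4, fell by 0.19 and MNAT1, of the CDK-activating kinase, rose by 0.21, whereas its partners CDK7 (0.08, edgeR adjusted p 0.268) and CCNH (0.06, edgeR adjusted p 0.476) did not pass.

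Downstream of RB1, 7 of 9 tested E2F and DP genes fell and the other 2 did not pass, with a median log2 fold change of -0.80. The activators E2F1 and E2F2 fell by 1.69 and 1.88 on the log2 scale, and the atypical repressors E2F7 and E2F8 by 1.09 and 1.14. TFDP1, the usual DP partner, fell by 0.80, E2F3 by 0.50 and E2F4 by 0.21, while E2F6 was at -0.12 and TFDP2 at -0.06 without passing. Of the MuvB core, which joins RBL2 in the repressor complex DREAM, LIN9 fell by 0.64 and the other 4 genes did not pass, at -0.01 to 0.15.

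All 20 genes of a list of E2F-responsive G1/S genes fell in edgeR at the adjusted p, with a median log2 fold change of -1.39. Of them, 15 fell past the 2-fold threshold as well, against 2.93% of all tested genes. The largest falls were those of RRM2, a subunit of ribonucleotide reductase (2.06 on the log2 scale), ORC1, of the origin recognition complex (2.06), and UHRF1, which guides maintenance DNA methylation (1.97). The fall of CCNE1, itself a known E2F target, was close in size to the median of this list, and so was that of CCND3 (log2 fold change -1.35). The part of E2F in either fall was not tested. All 5 genes for S and M phase cyclins and CDK1 fell as well, from CCNA2 (log2 fold change -1.26) to CDK1 (-0.78), with a median of -0.87. The study reported that full-length VIRMA raised proliferation and colony formation of SKBR3 cells. Growth is not read by these RNA counts.

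**Figure D4:**
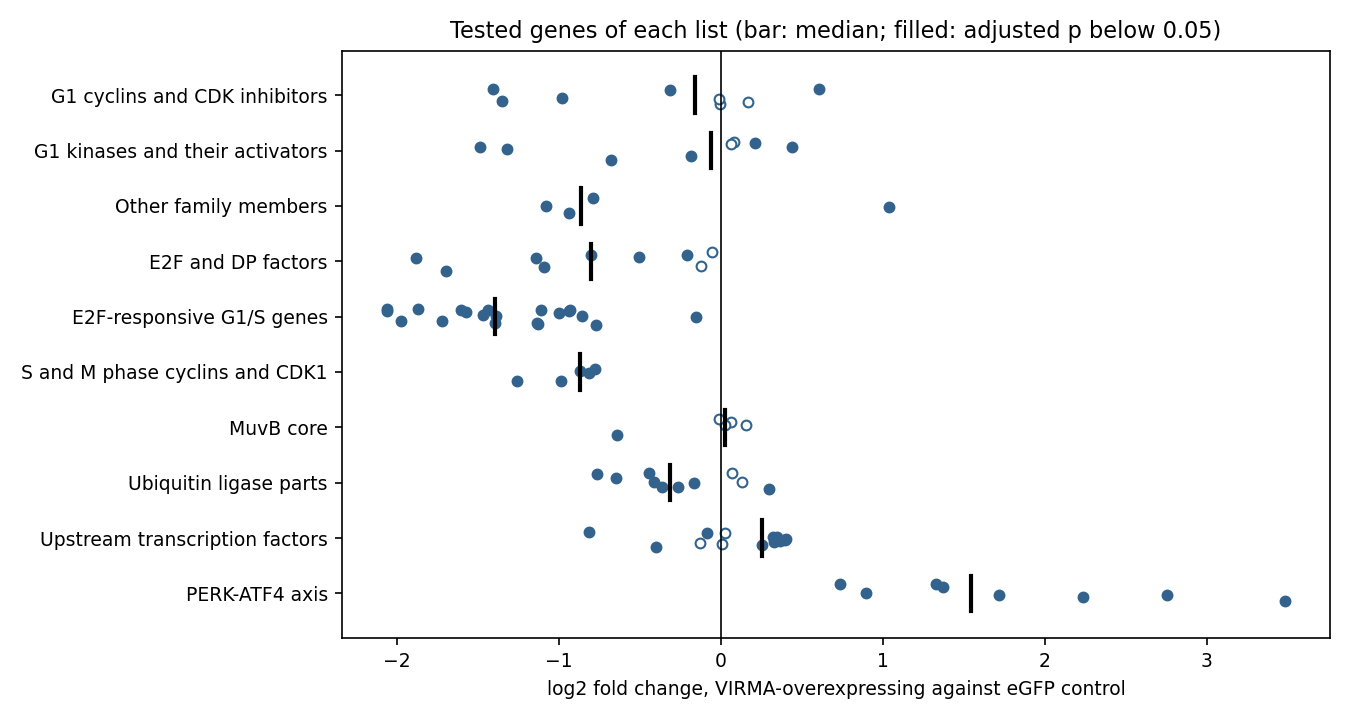
log2 fold change (VIRMA-overexpressing against eGFP control) of the tested genes of each list, with filled points at an edgeR adjusted p below 0.05 and a bar at the median of the list. The E2F-responsive genes all lie to the left of 0 with a median of -1.39, the PERK-ATF4 genes to the right with a median of 1.54, and the 8 tested G1 cyclins and CDK inhibitors lie on either side of it.

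Of 10 genes whose proteins mark G1 cyclins and inhibitors for degradation, 1 rose, 7 fell and 2 did not pass, where 35.1% of all tested genes were higher and 35.9% lower. The median log2 fold change was -0.31, and none passed the 2-fold threshold. SKP2, which recognises the CDKN1B protein, fell by 0.77 (edgeR adjusted p 5.23e-12), and its cofactor CKS1B by 0.65 (edgeR adjusted p 8.22e-15). FBXW7, which recognises cyclin E, was at 0.13 (edgeR adjusted p 0.240), and AMBRA1, which recognises D cyclins, fell by 0.27 (edgeR adjusted p 4.18e-05). FBXO31, known to act on cyclin D1, rose by 0.30 (edgeR adjusted p 0.000253).

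Regulators upstream of the 10 genes went in several directions. Of 13 tested transcription factors known to act on them, 7 rose, 3 fell and 3 did not pass, where 35.1% of all tested genes were higher and 35.9% lower. None passed the 2-fold threshold, and the median log2 fold change was 0.25. The largest rises were those of SMAD2 (0.40) and SMAD4 (0.40), which carry TGF-beta signals to CDKN2B, and of KLF4 (0.36), an activator of CDKN1A. The falls were those of KLF6 (-0.81), MYC (-0.40), a repressor of several CDK inhibitors, and CTNNB1 (-0.09). All 8 genes of the PERK-ATF4 stress axis rose, from ATF4 itself (0.73) to DDIT3 (3.48). Of these, 6 rose past the 2-fold threshold, against 4.52% of all tested genes. When active, this axis is known to lower the synthesis of D cyclin protein, which RNA counts do not read. Its part in the levels of the 10 genes was not tested.

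The genes whose levels over the 4 libraries came closest to those of CDKN1B were CSGALNACT2, L3MBTL1, NCOR1, SREK1 and MLLT10, with log2 fold changes of 0.58 to 0.62. Likeness was the Euclidean distance of log2 CPM centred over the 4 libraries, which for these genes was 0.0126 to 0.0239. For CCNE1 they were MCM5, LPCAT4, CCND3, AKR1B10 and HIST1H3G, at distances of 0.0334 to 0.0657 and with log2 fold changes of -1.79 (AKR1B10) to -1.35 (CCND3). CCND3 was thus the third nearest of all tested genes to CCNE1. A pseudocount of 0.5 CPM entered these distances and lowers the differences of genes at low levels, such as AKR1B10 (3.32 and 0.955 CPM in the group means) and HIST1H3G (4.54 and 1.49 CPM). The distances are a description.

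The tested protein-coding genes with a start within 500 kb of a member gave no common direction over the 10 genes, and their counts stand beside 35.1% higher and 35.9% lower over all tested genes. Near CCNE1, 4 genes were tested, of which 1 rose and 2 fell, and their log2 fold changes of -0.66 to 0.16 were all smaller in size than that of CCNE1. Of the 10 genes near CCND3, 4 rose and 1 fell. Of the 9 genes near CDKN1B, 4 rose and 2 fell. CDKN2D had 21 neighbours, of which 5 rose and 13 fell, with a median of -0.31. All 3 neighbours of CCND1 rose while CCND1 fell. The nearest of them, ORAOV1, shares 497 bases, or 10.3% of the exons of CCND1, on the opposite strand, and rose by 0.45 (edgeR adjusted p 5.18e-08). CDKN1A had 8 neighbours with 3 higher and 4 lower, CDKN1C 7 with 3 higher and 2 lower, CDKN2B 2 with 1 lower, and RB1 4 with 2 lower.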

How the data were processed

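Poly-A RNA libraries made with a stranded kit were sequenced, and per the submitters' processing notes and the study's methods the authors trimmed reads with Trimmomatic 0.39, aligned them with STAR 2.5.2a and counted them per gene with featureCounts on the human genome hg38 with Ensembl genes. The deposited table gives raw counts for each gene, without normalisation, along with exon coordinates and lengths. Whether strand was used and how multiply aligned reads were treated is not given in the sources used here. The control columns are named as a control with a replicate number, and eGFP comes from the sample titles. The other columns carry a code and were taken as the remaining group, and the level of VIRMA matches that.

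The 4 libraries (81446932 to 86375474 counts) were grouped by their titles. The study describes biological duplicates, and the p-values rest on the spread between these cultures, estimated across genes. Whether the duplicates came from separate transductions is not stated in the sources used here. Differences between the transduced and sorted populations may therefore be missing from this spread, and cannot be told apart from the effect of VIRMA. Genes with RPKM above 1 in at least 2 libraries (12205) entered edgeR 4.0.16 (R 4.3.3): TMM scaling, a quasi-likelihood fit on group alone, and p-values adjusted by Benjamini-Hochberg across these genes. Thresholds were 0.05 for the adjusted p and, where stated, 1 for the absolute log2 fold change. CPM and RPKM use the TMM-scaled totals of the tested genes. Genes below the filter were fitted without one. The biological coefficient of variation was 3.93%. The script was tested on simulated data. A pseudocount of 0.5 CPM was used in the distances only. The alternatives were DESeq2 1.42.0, limma-voom (limma 3.58.1), 3 scalings, 3 filters, a test against 2-fold, the replicate number as a block and leaving out each library. Promoter sequences are RefSeq's (GRCh38.p14). The comparison of protein sequences was not run.

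The members and the 14 gene lists were chosen with earlier results of these data known, so their counts are descriptions. The result of 1 list is not reported here. All members are named. Of lists of up to 10 genes any tested gene may be named, and of longer lists the 3 largest rises and 3 largest falls at an adjusted p below 0.05. The 5 most similar genes are given for the member that rose most and the one that fell most. HBB, COL1A1, MS4A1 and CDH1 were named as markers. ESRP1, PLEKHF2, INTS8 and ORAOV1 are named as neighbouring or overlapping genes, and MYC, CTNNB1 and KLF6 are the only factors that fell.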

Additional observations from a re-analysis of the deposited data

How the results depend on the processing

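The test against 2-fold gave 2 members lower and 0 higher. In all other alternatives fitted to the 4 libraries, CCND1, CCND3, CCNE1, CDKN1B and CDKN2D passed the adjusted p of 0.05 in the same direction. Over these and the left-out libraries the log2 fold change was -0.36 to -0.23 for CCND1, -1.39 to -1.26 for CCND3, -1.45 to -1.32 for CCNE1, 0.56 to 0.69 for CDKN1B and -1.09 to -0.89 for CDKN2D. CCNE2 was at -0.97 without passing in limma-voom, and -1.23 to -0.71 with a library left out. With upper-quartile factors and library totals, which shifted the median over the tested genes by 0.07 and 0.09 on the log2 scale, CDKN1A turned to 0.066 and 0.080 and RB1 to 0.060 and 0.074, CDKN2B passed at 0.24 and 0.25, so that 2 members were higher, and CDKN1C was at -0.00096 with upper-quartile factors. With a library left out, CDKN1A ranged from -0.081 to 0.067, CDKN1C from -0.14 to 0.23, CDKN2B from 0.029 to 0.29 and RB1 from -0.046 to 0.018, and 1 to 2 members were higher. The members lower past both thresholds numbered 2 or 3.

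Genes past both thresholds numbered 1044 higher and 808 lower with filterByExpr, 1137 and 820 with no filter, 930 and 689 with a minimum of 10 counts per library, and 189 and 173 when tested against 2-fold, where filters and the stricter test change the genes that can pass. In the 100 bases around the start, 3 of the 7 members with a window had a GC box and 1 a CCAAT box. Of all RefSeq windows, 25.1% held a GC box there and 10.7% a CCAAT box. The labels do not say that replicate numbers mark a shared culture, and deviations of same-numbered libraries correlated at 0.0753, with 2 pairs. The replicate block changed no member's call and gave 541 genes higher and 356 lower past both thresholds. A left-out library leaves a lone one in its group, assumed to vary like the others. The counts of CCNE2 and CDKN1C limit what can be detected in them.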
